A study of Mus musculus with 32 samples.

Results

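The genes described here set how fast cells pass from G1 into DNA synthesis: the D cyclins Ccnd1, Ccnd2 and Ccnd3, the CIP/KIP inhibitors Cdkn1a (p21), Cdkn1b (p27) and Cdkn1c (p57), the INK4 inhibitors Cdkn2c (p18) and Cdkn2d (p19), and the p53 targets Ccng1 and Mdm2. They were taken as every row whose gene symbol is one of these 10 names, out of 26331 named genes, and all 10 were detected in each of the 32 libraries, with 85 to 55839 counts per library. RNA was measured in mouse embryonic forebrain, with 1 embryo per library, from the dorsal telencephalon at E12.5 (embryonic day) or the cortex at E15.5. The study asked how loss or gain of Kat6b, which encodes a histone lysine acetyltransferase, changes gene expression in the developing cortex. On the inbred C57BL/6 background the groups were wild type (3 libraries at E12.5, 5 at E15.5) and Kat6b-/- knockout (3 and 5). On a mixed FVBxBALB/c background they were wild type (4 libraries at each age) and Tg(Kat6b), embryos with a transgene that raises Kat6b mRNA (4 at each age). The transgenic mice are stated not to survive on an inbred background, and neither the labels nor the design text name the promoter of the transgene. Each genotype was compared only with wild type of its own background. The C57BL/6 libraries were all of sequencing batch 2 and the FVBxBALB/c libraries of batch 1, and the tissue label followed the age in all libraries but 1, so background cannot be told apart from batch, nor age from dissection.

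D cyclins bind and activate the kinases CDK4 and CDK6, which phosphorylate the retinoblastoma protein and so release E2F factors for DNA synthesis. INK4 proteins block CDK4 and CDK6 themselves, while CIP/KIP proteins bind cyclin-CDK complexes more widely and hold CDK2 in check. In the embryonic cortex, radial glia divide at the ventricle and their daughters leave the cycle to become neurons, and p53 acts on both arrest, through Cdkn1a, and its own turnover, through Mdm2.

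Library totals ran from 10424813 to 49699656 counts, and no pair of libraries held the same values. Levels are in CPM, counts relative to the scaled library total, on a scale common to all 32 libraries. Cortical genes were present: the mean of Tbr1, a deep-layer neuron factor, was 184 to 434 CPM over the 8 groups and that of Pax6, a radial glia factor, 70.1 to 201. Markers of ventral telencephalon and interneurons were present as well. At E12.5 their summed level spanned 373 to 1120 CPM in C57BL/6 wild type, 687 to 1270 in the knockout and 591 to 1030 in FVBxBALB/c wild type. Among the E15.5 groups Tg(Kat6b) varied most, between 530 and 1400 CPM. How much ventral tissue the dissections held was not tested. Kat6b itself was measured at 178 ± 20.2 (SD, n = 4) CPM in FVBxBALB/c wild type and 547 ± 54.7 (SD, n = 4) in Tg(Kat6b) at E12.5, and at 183 ± 31.7 (SD, n = 4) and 659 ± 77.3 (SD, n = 4) at E15.5. In the knockout, counts over the whole Kat6b gene were 154 ± 34.8 (SD, n = 3) against 170.4 ± 20.7 (SD, n = 3) in wild type at E12.5 and 174 ± 15.1 (SD, n = 5) against 171 ± 17.8 (SD, n = 5) at E15.5, so these counts do not check the knockout labels. Knockout replicate 3 at E15.5 stood apart, with 17.5% of its counts on the ribosomal RNA gene Rn45s against 0.0394% to 0.664% in every other library. Both E15.5 C57BL/6 replicates 5 carry a file header for an E12.5 replicate, and the knockout one is labelled dorsal telencephalon, so results were also computed without both. Their titles give E15.5, and they were kept at that age. Neuron marker sums at E15.5, these libraries included, were 10100 to 10700 CPM in C57BL/6 wild type and 9890 to 11100 in the knockout. At E12.5 such sums were 3210 to 4780 and 3380 to 4970.

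Per kilobase of counting length, which lets genes be compared with each other, the 10 levels spanned more than an order of magnitude in every group. Ccnd2 had the highest mean at E12.5 in all 4 groups, for example 219 ± 40.1 CPM per kb (SD, n = 3) in C57BL/6 wild type and 172 ± 18.7 (SD, n = 4) in FVBxBALB/c wild type. In both wild types it was followed by Ccnd1 (122 ± 18.3 and 133 ± 16.7 CPM per kb) and Cdkn1c (114 ± 9.34 and 112 ± 20.7), and the library ranges of Ccnd1 and Cdkn1c overlapped in both. The range of Ccnd2 also overlapped that of the next gene in FVBxBALB/c wild type (147 to 192 against 119 to 157). So it did in Tg(Kat6b), and in the knockout, where Cdkn1c came second. Cdkn1b came next in the wild types at 64.4 ± 3.27 and 68.8 ± 6.97 CPM per kb. At the other end, Cdkn1a had the lowest mean in every group, between 6.10 ± 1.37 CPM per kb in Tg(Kat6b) at E15.5 and 9.19 ± 2.17 in the knockout at E12.5. Mdm2, Ccnd3, Cdkn2d, Ccng1 and Cdkn2c lay between these ends, and in C57BL/6 wild type at E12.5 the ranges of Mdm2, Ccnd3, Cdkn2d and Ccng1 each overlapped with the next in that order. By E15.5 the order had shifted. Cdkn1b had the highest mean in FVBxBALB/c wild type (107 ± 8.85 CPM per kb against 99.7 ± 10.9 for Ccnd2, with overlapping ranges). It had the second highest in C57BL/6 wild type (80.3 ± 4.39 against 106 ± 15.46 for Ccnd2, again with overlapping ranges). Ccnd1 was then sixth of the 10 in C57BL/6 wild type, at 23.9 ± 2.00 CPM per kb.

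**Figure D1:**
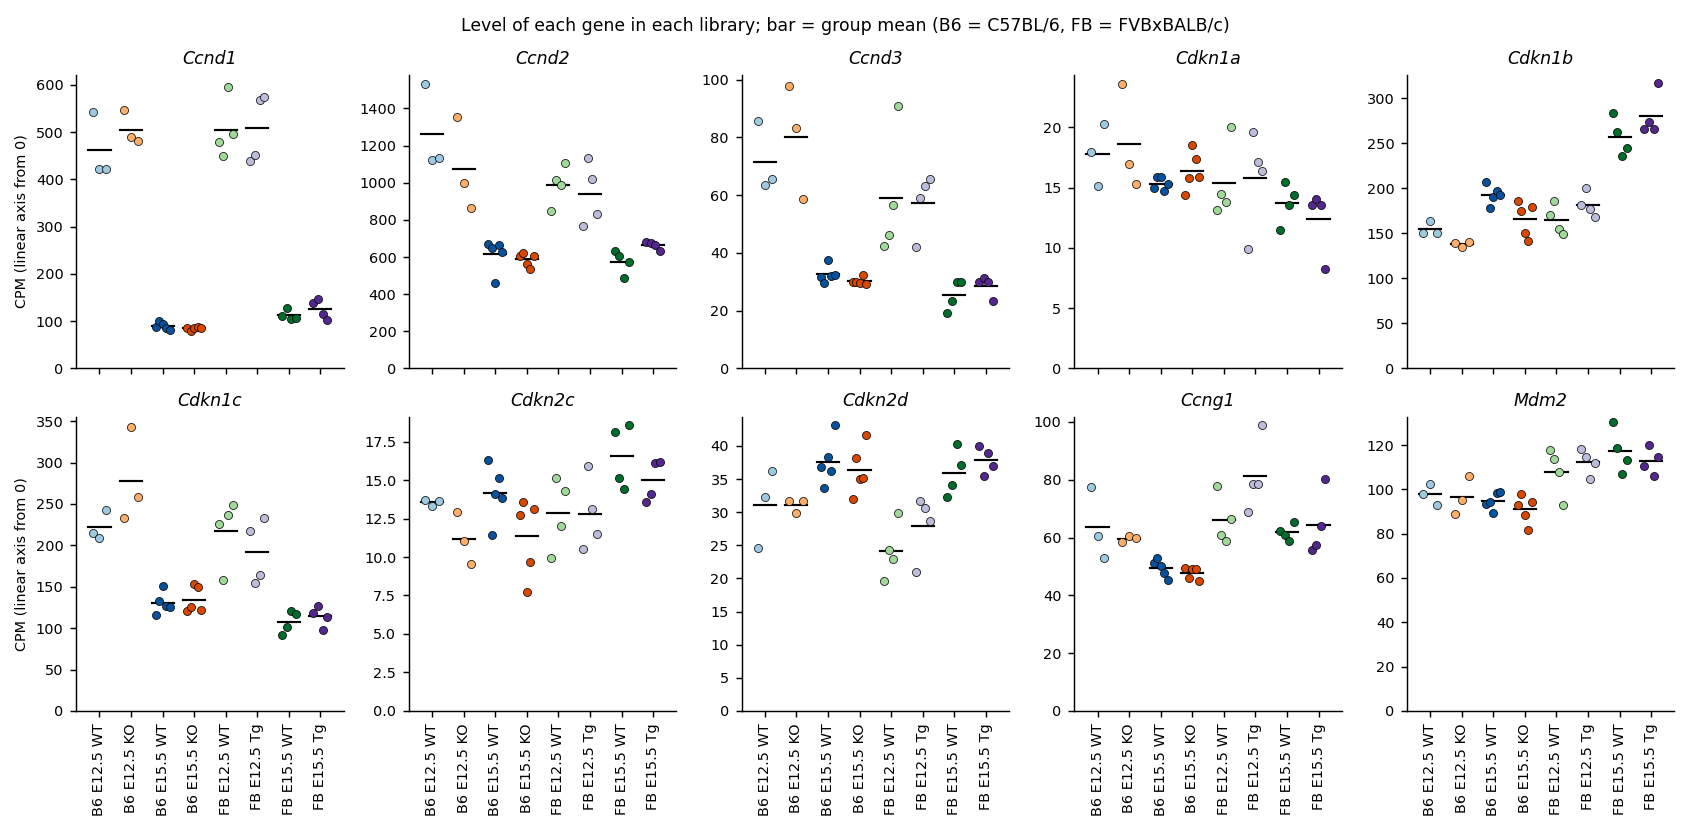
Each panel shows 1 gene, with CPM on a linear axis from 0 and 1 point per library in the 8 groups (B6 is C57BL/6, FB is FVBxBALB/c), and the bar is the group mean. The E12.5 and E15.5 points of Ccnd1, Ccnd2, Ccnd3 and Cdkn1c lie apart in both backgrounds, while those of Cdkn1a and Mdm2 lie at like levels.

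Age gave the largest differences in these genes. Between E12.5 and E15.5 the D cyclins and Cdkn1c fell, Cdkn1b rose, and Cdkn1a and Mdm2 did not pass the test. Cdkn2d and Ccng1 were called in 3 of the 4 groups each, and Cdkn2c in none. In wild type, edgeR called 7 of the 10 genes in C57BL/6 (2 higher, 5 lower) and 6 in FVBxBALB/c (2 higher, 4 lower) at an adjusted p below 0.05. Over all genes tested, 56.8% were called in C57BL/6 (28.6% higher, 28.2% lower) and 50.1% in FVBxBALB/c (25.1% higher, 25.1% lower), so the counts for these genes are near the background. Their median log2 fold change was -0.27 and -0.13, beside -0.02 and -0.03 over all genes. In the knockout 6 were called (1 higher, 5 lower) where 56.4% of all genes were, and in Tg(Kat6b) 7 (2 higher, 5 lower) where 46.3% were. In bulk tissue, fewer cells of a type and less RNA per cell cannot be told apart. Whether ages overlapped is stated for single genes below as a description, as the share of all genes without overlap was not computed.

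Ccnd1, the D cyclin best known for its response to growth signals, fell most. In C57BL/6 wild type it was measured at 542, 423 and 422 CPM in the E12.5 replicates and at 88.2, 101, 95.2, 86.3 and 82.4 at E15.5. Every E15.5 library lay far below every E12.5 library. The group means were 462 ± 69.5 (SD, n = 3) and 90.7 ± 7.58 (SD, n = 5), a 5.03-fold decrease, with a log2 fold change of -2.33 (SE 0.0872, edgeR adjusted p = 2.56e-11). Of the 16118 genes tested, 1.57% had a lower log2 fold change. FVBxBALB/c wild type went from 479.6, 450.1, 596 and 495 CPM to 110.4, 128, 104 and 108, again without overlap, a log2 fold change of -2.17 (adjusted p = 4.86e-09, SE 0.129) and a 4.49-fold decrease, and 2.46% of 15556 genes had a lower one. Of 20 proliferation genes and 22 tested genes of the G1/S machinery, none fell as far as Ccnd1 in either background: the lowest were Ccne1 (-1.52) in C57BL/6 and E2f7 (-1.40) in FVBxBALB/c. The knockout and the transgenic embryos gave -2.54 (adjusted p = 6.55e-12, SE 0.0875) and -2.01 (adjusted p = 1.06e-08, SE 0.128).

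Ccnd2, the D cyclin enriched in cortical progenitors and their basal processes, fell by less. C57BL/6 wild type had 1529, 1124 and 1131 CPM at E12.5 and 673, 649, 458, 665 and 627 at E15.5. The groups did not overlap, although replicate 3 at E15.5 lay well under the other 4, and replicate 1 at E12.5 lay above the other 2. The log2 fold change was -1.02 (adjusted p = 1.69e-05, SE 0.144), a 2.03-fold decrease. In FVBxBALB/c wild type the values were 846, 1017, 989.7 and 1106 CPM at E12.5 and 634, 606, 488 and 574 at E15.5, also without overlap, with a log2 fold change of -0.78 (adjusted p = 4.24e-05, SE 0.119). The log2 fold change was -0.83 in the knockout and -0.50 in Tg(Kat6b), the smallest of the 4, with adjusted p = 0.000118 and 0.00247 by edgeR.

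Ccnd3, the least abundant of the D cyclins, fell in all 4 comparisons too. Its E12.5 levels were 85.8, 63.6 and 65.5 CPM in C57BL/6 wild type and 42.4, 46.2, 56.5 and 91.0 in FVBxBALB/c wild type. At E15.5 C57BL/6 wild type had 31.7, 29.7, 37.6, 32.04 and 32.4 CPM. FVBxBALB/c wild type had 19.2, 23.4, 30.04 and 29.8 at that age. Ages did not overlap, but the E12.5 libraries spread widely, and FVBxBALB/c replicate 4 stood far above the other 3 of its group. The log2 fold changes were -1.11 (adjusted p = 2.4e-06, SE 0.131) and -1.21 (adjusted p = 0.000241, SE 0.219), and those of the knockout and Tg(Kat6b) were -1.37 and -1.005. Markers of meninges and mesenchyme moved with Ccnd3: of the 14 genes on that list, 10 fell with age in C57BL/6 wild type and 13 in FVBxBALB/c wild type, and none rose. Their summed level was 485 to 1420 CPM in C57BL/6 wild type and 410 to 2090 in FVBxBALB/c wild type at E12.5, and 41.9 to 140 and 45.9 to 60.4 at E15.5. In the knockout the sum went from 403 to 2250 CPM down to 42.6 to 226, and in Tg(Kat6b) from 291 to 1360 down to 42.0 to 55.4. None of the 14 markers was at 0 in any E12.5 library, whereas Aldh1a2, Mgp, Lum or Twist1 was at 0 in 7 of the 18 E15.5 libraries. Markers of some other tissues were also lower at E15.5. Of 8 erythroid markers, 8 fell in C57BL/6 wild type (median -4.93, sums of 1990 to 3770 CPM and then 63.2 to 111) and 7 in FVBxBALB/c wild type (median -3.24, 2270 to 9170 and then 99.6 to 169). Most of the E12.5 sums came from the globin Hbb-y, with means of 2390 and then 14.6 CPM in C57BL/6 and 3360 and then 31.3 in FVBxBALB/c. The globin Hba-a1 changed less, from 171 to 59.5 and from 193 to 75.9, so these sums are no measure of blood content. Of 13 markers of cortical hem and choroid plexus, 9 and 10 fell, with sums that overlapped between the ages (284 to 404 CPM and then 30.1 to 649 in C57BL/6, 252 to 365 and then 22.2 to 481 in FVBxBALB/c). Of the tested markers of diencephalon, midbrain and hindbrain, 4 of 10 fell in C57BL/6 (356 to 396 CPM and then 39.1 to 285) and 9 of 9 in FVBxBALB/c (170 to 806 and then 45.9 to 79.6). None of these 3 lists had a gene that rose. Other lists differed: the sum of the microglia markers was 34.4 to 44.9 CPM and then 50.4 to 61.3 in C57BL/6 wild type, and 42.7 to 53.4 and then 64.4 to 72.5 in FVBxBALB/c wild type. That of endothelium and pericytes was 257 to 430 CPM and then 246 to 291 in C57BL/6, and 272 to 371 and then 208 to 242 in FVBxBALB/c. At E12.5 the libraries with the highest Ccnd3 had meningeal sums of 1420 (C57BL/6 wild type replicate 1), 1000 (knockout replicate 1), 2090 (FVBxBALB/c wild type replicate 4) and 1360 (Tg(Kat6b) replicate 4). In the knockout the highest sum, 2250 CPM, was that of replicate 3, whose Ccnd3 was lower than that of replicate 1. Without both replicates 4 at E12.5, the FVBxBALB/c age difference of Ccnd3 was -0.93 in wild type (adjusted p = 0.000277) and -0.94 in Tg(Kat6b) (adjusted p = 0.000276). The part of any of these cells in the age difference of Ccnd3, or of the other members, was not tested.

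**Figure D2:**
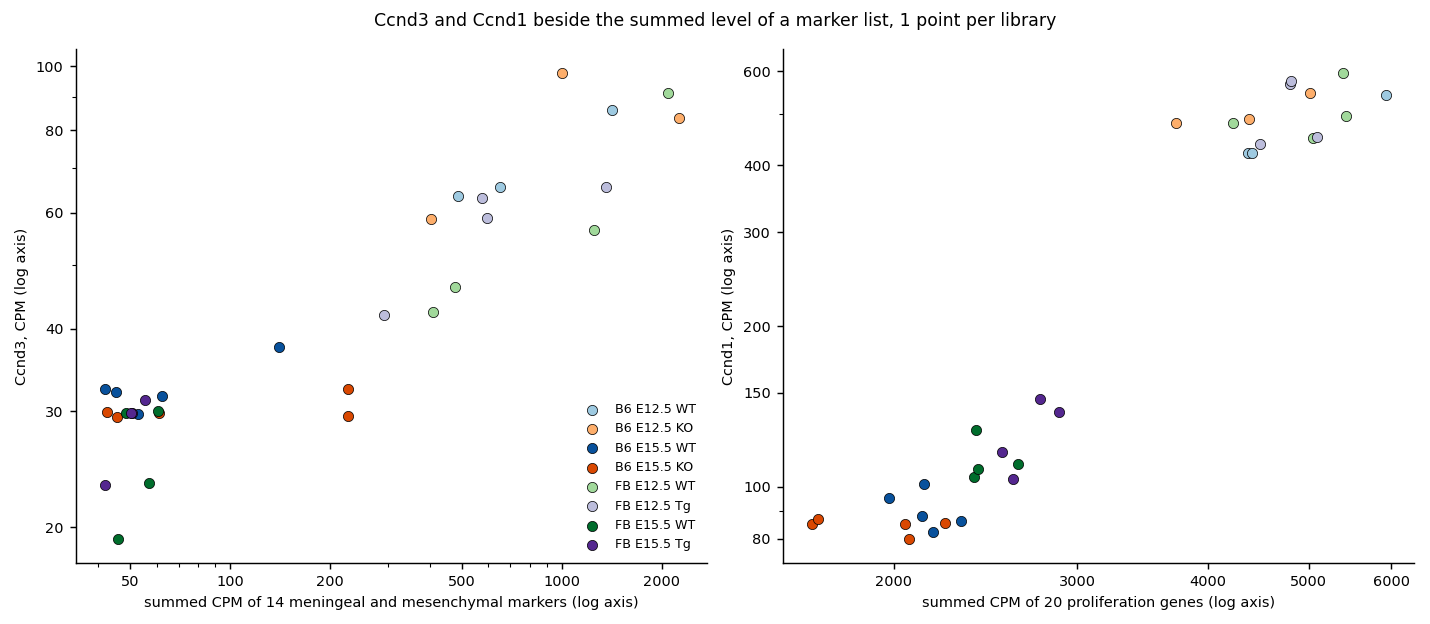
The left panel plots Ccnd3 in CPM against the summed CPM of 14 meningeal and mesenchymal markers and the right panel Ccnd1 against the sum of 20 proliferation genes, on log axes with 1 point per library coloured by group. The E12.5 libraries, with meningeal sums of 291 to 2250, all lie above the E15.5 libraries in Ccnd3 and in Ccnd1, and form a separate cloud in both panels.

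The D-cyclin pool changed in make-up as well as in size. Summed per kilobase, the family stood at 372 ± 64.1 CPM per kb (SD, n = 3) in C57BL/6 wild type at E12.5 and 145 ± 13.7 (SD, n = 5) at E15.5. In FVBxBALB/c wild type it stood at 330 ± 32.8 and 140 ± 10.9 (SD, n = 4 each). Over the same interval the share of Ccnd1 in that sum went from 32.8% ± 0.624 to 16.7% ± 2.50 in C57BL/6 and from 40.3% ± 4.15 to 21.1% ± 1.40 in FVBxBALB/c. The share of Ccnd2 was larger at E15.5, at 58.7% ± 0.635 and then 73.2% ± 4.37 in C57BL/6, and at 51.9% ± 3.22 and then 70.8% ± 2.87 in FVBxBALB/c. Ccnd3 held 8.51% ± 0.105 and 10.1% ± 2.05 in C57BL/6, with like values in FVBxBALB/c. These shares are a description and were not tested as such.

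Among the CIP/KIP inhibitors, Cdkn1b rose, Cdkn1c fell and Cdkn1a stayed low. Cdkn1b, which accumulates in cells that leave the cycle, was measured at 150.2, 164 and 151 CPM at E12.5 and 207, 178, 191, 197 and 192 at E15.5 in C57BL/6 wild type. In FVBxBALB/c wild type the values were 171, 187, 156 and 149 CPM at E12.5 and 284, 263, 236 and 245 at E15.5. All E15.5 values lay above all E12.5 values within each background, with more room between them in FVBxBALB/c. The log2 fold changes were 0.34 (adjusted p = 0.00216, SE 0.0819) and 0.63 (adjusted p = 2.87e-05, SE 0.0926), a 1.26-fold and a 1.55-fold increase. The knockout gave 0.30 (adjusted p = 0.00446, SE 0.0818) and Tg(Kat6b) 0.63 (adjusted p = 3.78e-05, SE 0.0925). The call in C57BL/6 depended on the scaling: with total counts as the only scaling the adjusted p of Cdkn1b was 0.064 in wild type (log2 fold change 0.26) and 0.319 in the knockout (0.14).

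Cdkn1c, an imprinted inhibitor with a role in the exit of cortical progenitors from the cycle, fell. C57BL/6 wild type had 215, 209 and 243 CPM at E12.5 and 116, 133, 151, 126 and 125 at E15.5. In FVBxBALB/c wild type there were 226, 158, 236 and 248 CPM at E12.5 and 92.2, 102, 121 and 117 at E15.5. In neither background did the ages overlap, though FVBxBALB/c replicate 2 at E12.5 was much lower than the other 3. The log2 fold changes were -0.75 (adjusted p = 5.34e-05, SE 0.120) and -1.01 (adjusted p = 4.16e-05, SE 0.152), and -1.01 and -0.75 in the knockout and Tg(Kat6b).

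The CIP/KIP pool therefore differed in make-up between the ages. Per kilobase its sum was 188 ± 8.96 and then 155 ± 5.89 CPM per kb in C57BL/6 wild type, and 188 ± 15.2 and then 169 ± 1.63 in FVBxBALB/c wild type. Cdkn1c provided 61.0% ± 2.30 of it at E12.5 and 43.3% ± 3.16 at E15.5 in C57BL/6, and 59.0% ± 6.83 and 32.8% ± 4.36 in FVBxBALB/c. Cdkn1b provided 34.4% ± 2.75 and then 51.9% ± 3.20, and 37.0% ± 6.84 and then 63.2% ± 4.63. Cdkn1a stayed between 4.00% and 4.89% in these 4 groups.

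**Figure D3:**
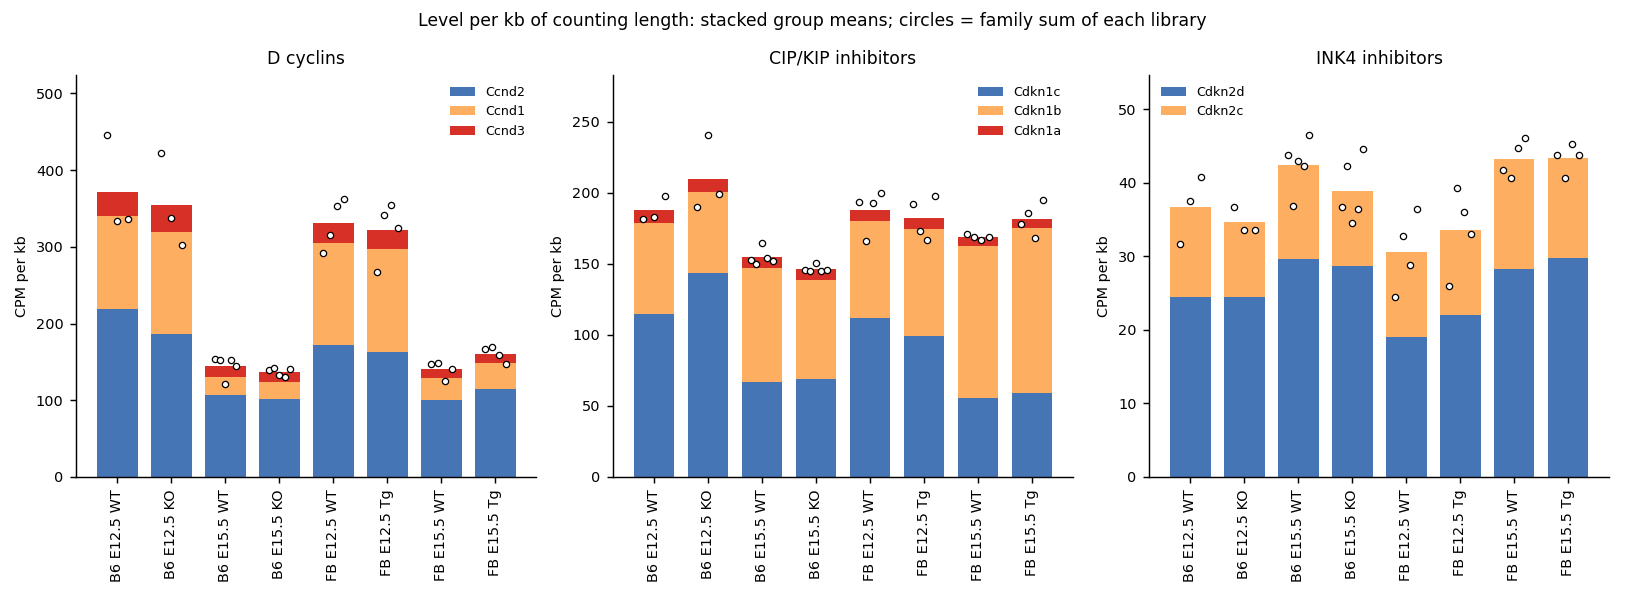
Stacked bars give the group means of each family's genes in CPM per kb for the 8 groups, and the circles give the family sum of each library. The D-cyclin bars shrink between the ages, from 372 to 145 in C57BL/6 wild type, and Cdkn1b takes a larger part of the CIP/KIP bars at E15.5.

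Of the INK4 inhibitors, Cdkn2d rose in both wild types and in Tg(Kat6b), and Cdkn2c passed in no group. Per kilobase the INK4 sum was 36.7 ± 4.61 and then 42.4 ± 3.55 CPM per kb in C57BL/6 wild type, and 30.6 ± 5.17 and then 43.2 ± 2.52 in FVBxBALB/c wild type. Cdkn2d, which is found in differentiating and postmitotic neurons, was measured at 19.6, 24.3, 22.9 and 29.9 CPM and then 32.2, 34.2, 40.3 and 37.1 in FVBxBALB/c wild type. These ages did not overlap, and the log2 fold change was 0.57 (adjusted p = 0.00223, SE 0.135). In C57BL/6 wild type it was 24.6, 32.4 and 36.1 CPM and then 36.9, 33.6, 38.3, 36.2 and 43.2, with overlapping ages and a log2 fold change of 0.30 (adjusted p = 0.0339, SE 0.115). Leaving out C57BL/6 wild-type replicate 1 at E12.5, the lowest of its group, ended that call (adjusted p of Cdkn2d 0.216). So did leaving out E15.5 replicate 3 (0.051), replicate 5 (0.0868) or both genotypes' replicates 5 (0.0802), total-count scaling (0.174), quality weights (0.113) and a fit of all 32 libraries (0.0709). The log2 fold change was 0.44 (adjusted p = 0.0136, SE 0.135) in Tg(Kat6b), while 0.26 (adjusted p = 0.0596, SE 0.114) in the knockout missed the threshold, which it passed without knockout replicate 1 at E15.5 (0.0349), with quality weights (0.0147) and with a meningeal covariate (0.0471).

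Cdkn2c was among the scarcest of the genes, at 13.6 ± 0.1897 (SD, n = 3) CPM and 14.2 ± 1.81 (SD, n = 5) in C57BL/6 wild type and 12.8 ± 2.32 (SD, n = 4) and 16.6 ± 2.09 (SD, n = 4) in FVBxBALB/c wild type. Its age differences of 0.08 and 0.36 did not pass the test (adjusted p = 0.704 and 0.066), and the intervals were -0.266 to 0.422 and 0.0286 to 0.682. It passed in FVBxBALB/c wild type without E12.5 replicate 2 (adjusted p of Cdkn2c 0.0363) or replicate 4 (0.0496). The other INK4 genes, Cdkn2a and Cdkn2b, were near 0, with group means of at most 0.0744 and 0.226 CPM.

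For the p53 targets, promoter sequence is shown first because it is where p53 is known to act. A search of RefSeq promoter windows (mouse GRCm38.p6, 250 bases before to 50 after each start) for the p53 response element, as 2 adjoining decamers on either strand with at most 1 mismatch in 20 bases, found it in 29 of 32851 windows (0.0883%). Of the 10 genes, 7 had a window (10 windows in all), and 2 of those windows held the element, those of Cdkn1a and Ccng1. Both are printed below from 250 bases upstream up to the start, with the element in capitals.
Cdkn1a, chr17:29090729-29090978, plus strand: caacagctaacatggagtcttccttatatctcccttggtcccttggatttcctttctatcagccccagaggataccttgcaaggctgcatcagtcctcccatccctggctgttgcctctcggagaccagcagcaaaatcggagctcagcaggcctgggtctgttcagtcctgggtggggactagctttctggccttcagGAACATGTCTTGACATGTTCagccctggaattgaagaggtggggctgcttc
Ccng1, chr11:40755287-40755536, minus strand: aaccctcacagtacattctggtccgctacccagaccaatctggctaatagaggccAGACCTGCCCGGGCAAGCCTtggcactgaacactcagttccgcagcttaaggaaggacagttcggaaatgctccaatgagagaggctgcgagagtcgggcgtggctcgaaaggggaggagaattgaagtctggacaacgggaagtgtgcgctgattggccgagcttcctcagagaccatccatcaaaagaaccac
The element lies 51 to 32 bases before the first of 2 starts in Cdkn1a, whose other window holds none (at least 5 mismatches), and 195 to 176 bases before it in Ccng1. A match is a description of letters and no measure of binding. The Mdm2 window held none (at least 5 mismatches), and the p53 sites known in Mdm2 lie inside the gene, which this window does not cover.

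Of both genes with the element printed above, Cdkn1a did not pass the age test in any group and Ccng1 passed in 3 of the 4. Cdkn1a, the main arrest gene downstream of p53, was measured at 17.9, 15.1 and 20.2 CPM at E12.5 and 14.99, 15.8, 15.9, 14.7 and 15.3 at E15.5 in C57BL/6 wild type. In FVBxBALB/c wild type it was measured at 13.2, 14.5, 13.8 and 20.02 CPM at E12.5 and 11.5, 15.4, 13.6 and 14.4 at E15.5. The ages overlapped in both backgrounds. Log2 fold changes were -0.19 (adjusted p = 0.237, SE 0.132) and -0.17 (adjusted p = 0.526, SE 0.205), with intervals of -0.468 to 0.0907 and -0.600 to 0.269, and neither the knockout (-0.15) nor Tg(Kat6b) (-0.34) passed. Without Tg(Kat6b) replicate 1 at E12.5 the last of these was called (Cdkn1a -0.51, adjusted p = 0.0276).

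Ccng1, an atypical cyclin that recruits a phosphatase to Mdm2, had 77.3, 60.6 and 52.9 CPM and then 51.2, 53.1, 50.2, 47.9 and 45.2 in C57BL/6 wild type. FVBxBALB/c wild type had 77.8, 60.9, 58.9 and 66.3 and then 62.2, 61.0, 58.7 and 65.4. Replicate 1 was the highest of the 3 in C57BL/6 at E12.5, and the ages overlapped in both backgrounds. Ccng1 fell in C57BL/6 wild type by edgeR, with a log2 fold change of -0.34 (adjusted p = 0.00499, SE 0.0942), and this call was lost without that replicate (-0.18, adjusted p of Ccng1 0.0689). It passed in the knockout, -0.28 (adjusted p = 0.0165, SE 0.0944), and in Tg(Kat6b), -0.33 (adjusted p = 0.0417, SE 0.128), and did not in FVBxBALB/c wild type, -0.09 (adjusted p = 0.57, SE 0.128). Leaving out knockout replicate 3 at E12.5 also ended the knockout call (adjusted p of Ccng1 0.0545), and the Tg(Kat6b) call failed in 7 of 17 alternative settings, without replicate 2, 3 or 4 at E12.5, both FVBxBALB/c replicates 4 at E12.5, or replicate 1, 2 or 3 at E15.5 (adjusted p up to 0.153).

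Mdm2, the ubiquitin ligase that degrades p53, did not pass the age test in any of the 4 groups. Its levels were 97.9, 102 and 93.0 CPM and then 93.2, 94.5, 89.2, 98.2 and 98.6 in C57BL/6 wild type, and 118, 114, 108 and 93.1 and then 130.2, 119, 107 and 113 in FVBxBALB/c wild type. The log2 fold changes were -0.03 (adjusted p = 0.771, SE 0.0711) and 0.12 (adjusted p = 0.248, SE 0.0833), with intervals of -0.177 to 0.124 and -0.0567 to 0.296. The knockout and Tg(Kat6b) gave -0.05 and 0.01.

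Other genes of these pathways gave a setting for the age results. Of 24 further genes of the G1/S machinery, 22 were tested. In C57BL/6 wild type 19 fell and 2 rose (median log2 fold change -1.02), and in FVBxBALB/c wild type 18 fell and 1 rose (median -0.82), where the median of all genes was near 0. E2f2 (-1.40) and E2f6 (-1.02), both E2F factors, and Skp2 (-1.27), which targets Cdkn1b for degradation, fell in C57BL/6, and E2f7 (-1.40), Cdk2 (-1.12) and Skp2 (-1.01) fell in FVBxBALB/c. The genes that rose were the retinoblastoma gene Rb1 (0.25) and its relative Rbl2 (0.42) in C57BL/6 and Rbl2 (0.34) in FVBxBALB/c. All 20 proliferation genes fell in both backgrounds (median -1.20 and -1.06), among them Birc5 (-1.40) and Ccnb1 (-1.37) in C57BL/6 and Bub1 (-1.19) and Mcm4 (-1.19) in FVBxBALB/c. Their summed level was 4230 to 5930 CPM in wild type at E12.5 and 1980 to 2630 at E15.5, so Ccnd1 and the proliferation genes were low in the same libraries. All 14 neuron markers rose in both backgrounds, with sums of 3210 to 5360 CPM in wild type at E12.5 and 10100 to 11900 at E15.5. Progenitor markers did not all move one way. Of 14 apical progenitor markers, 11 fell and 2 rose in each background. The mean of Fabp7, of that list, was 348 and then 491 CPM in C57BL/6 wild type. In FVBxBALB/c wild type it was 402 and then 764. Of 10 intermediate progenitor markers, 3 rose and 4 fell in C57BL/6, and 4 rose and 3 fell in FVBxBALB/c.

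The p53 network beyond these members did not move one way. Of 29 listed genes, 27 were tested. In C57BL/6 wild type 8 rose and 11 fell (median -0.21), and in FVBxBALB/c wild type 7 rose and 10 fell (median -0.22). Over all genes 28.6% rose and 28.2% fell in C57BL/6 and 25.1% each way in FVBxBALB/c, so the counts of this list lie near the background. Plk2 (1.39), Sesn1 (0.60) and Ddit4 (0.66) rose in C57BL/6, and Plk2 (1.22), Sesn1 (0.79) and Ccng2 (0.59) in FVBxBALB/c. Those that fell included Gtse1 (-1.28), which is expressed in dividing cells, Btg2 (-0.72) and Ckap2 (-0.77) in C57BL/6, and Gtse1 (-1.21), Pidd1 (-1.12) and Ckap2 (-0.63) in FVBxBALB/c.

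**Figure D4:**
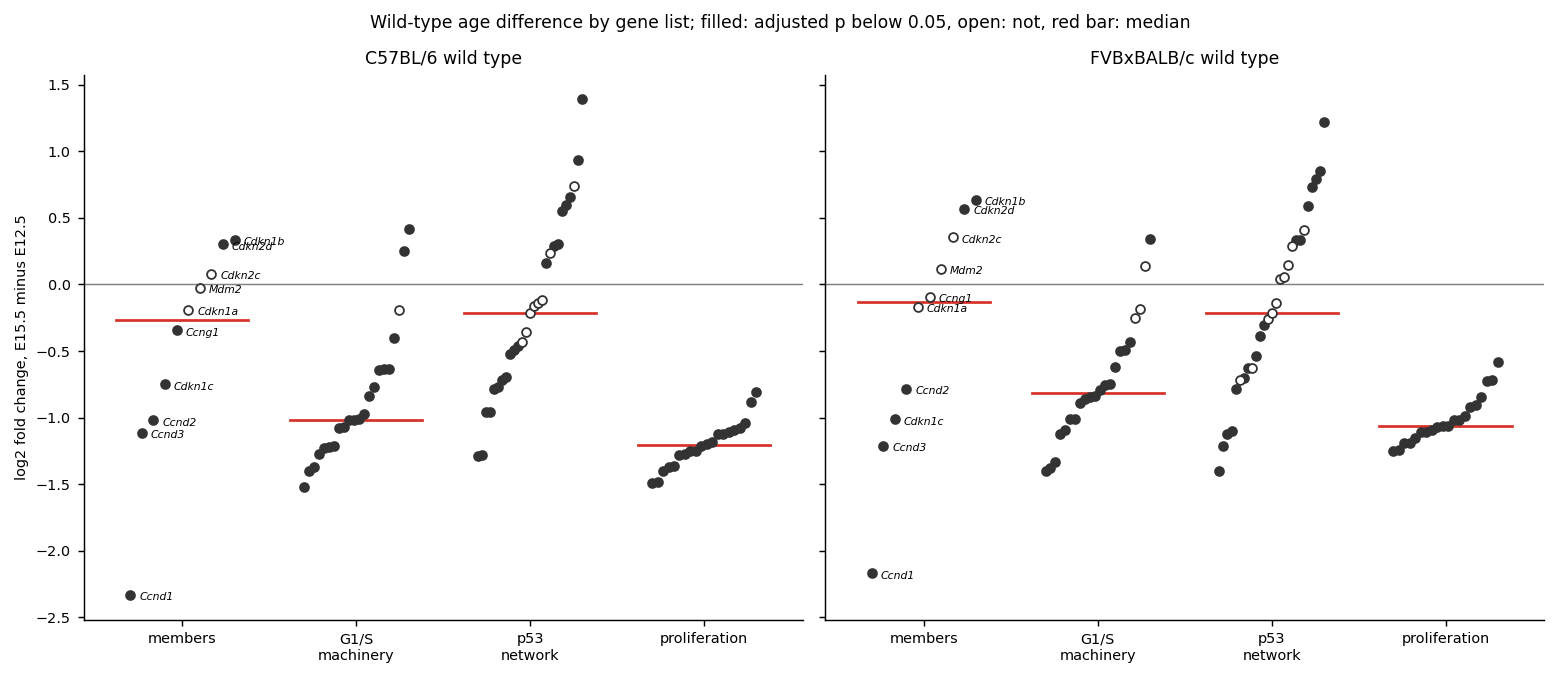
Points give the wild-type log2 fold change of E15.5 over E12.5 for the 10 genes, the other G1/S machinery, the p53 network and the proliferation genes, filled where the adjusted p was below 0.05, with the list median as a red bar. Ccnd1 lies below every other point in both backgrounds, at -2.33 and -2.17, while p53 network genes spread to both sides of 0.

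Neither loss nor gain of Kat6b gave a called difference in any of the 10 genes at either age. By edgeR 0 of 10 passed in each of the 4 genotype comparisons, and the smallest adjusted p was 0.881 in the knockout at E12.5, 1 at E15.5, 0.724 in Tg(Kat6b) at E12.5 and 1 at E15.5. The background was as low: 0.00620% of genes were called in the knockout at E12.5 (1 gene, Stac) and 0 at E15.5, and 0.0129% in Tg(Kat6b) at each age (Kat6b itself and Dupd1). At an unadjusted p under 0.05 there were 1, 2, 1 and 0 of the 10 genes in the same order, among 842, 456, 1039 and 346 of all genes. DESeq2 called none of the 10 and 5, 7, 6 and 7 of all genes. The 95% intervals bound what could have been missed: over the 10 genes they reached from -0.673 to 0.600 on the log2 scale in the knockout at E12.5, from -0.603 to 0.346 at E15.5, from -0.488 to 0.575 in Tg(Kat6b) at E12.5 and from -0.585 to 0.637 at E15.5. The genes of the G1/S, p53 and proliferation lists also gave 0 calls in these comparisons.

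Cdkn1b had the smallest unadjusted p of the 10 in the knockout at E15.5. At E12.5 the knockout had 139.9, 135 and 141 CPM and wild type 150.2, 164 and 151, so that all 3 knockout libraries lay below all 3 wild-type ones. At E15.5 the knockout had 186, 175, 150.4, 142 and 179.8 CPM and wild type 207, 178, 191, 197 and 192, and the groups overlapped. Means were 139 against 155 and 167 against 193 CPM, and the log2 differences were -0.17 (adjusted p = 0.881, SE 0.0906) and -0.20 (adjusted p = 1, SE 0.0703), with intervals of -0.363 to 0.0193 and -0.353 to -0.0558. Compared within litters, Cdkn1b was lower in the knockout in 2 of 2 litters at E12.5 and in 5 of 5 at E15.5, for example 142 against 197 CPM in litter 575 and 175 against 178 in litter 511. The share of all genes with such litter counts, or with no overlap at E12.5, was not computed, so these counts are a description only. With the litter number as a block the differences were -0.17 (adjusted p of Cdkn1b 0.708) and -0.21 (adjusted p = 1). The knockout replicates with the lowest Cdkn1b at E15.5, replicates 3 and 4, also had the highest meningeal sums of the E15.5 libraries (226 CPM each, against 42.6 to 60.8 in the other 3 knockout and 41.9 to 140 in the wild-type libraries) and the lowest proliferation sums (1670 and 1690 CPM, against 2050 to 2240 in the other 3), and replicate 3 was the library with much ribosomal RNA. All 14 meningeal markers had values above 0 in both. Without these 2 libraries the difference of Cdkn1b was -0.10 (SE 0.0647). They are the lowest of the knockout, so leaving them out makes the difference smaller whatever its cause, which was not tested. In Tg(Kat6b) the differences were 0.14 (adjusted p = 0.803, SE 0.0921) at E12.5 and 0.14 (adjusted p = 1, SE 0.0923) at E15.5.

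Cdkn2c gave the lowest point estimates in the knockout. Its E12.5 values were 12.9, 11.03 and 9.58 CPM in the knockout and 13.7, 13.3 and 13.7 in wild type, without overlap, and the wild-type libraries were very close to each other. At E15.5 the knockout had 12.7, 13.6, 7.71, 9.67 and 13.2 CPM and wild type 16.3, 11.5, 14.1, 15.2 and 13.9, with overlap, and replicates 3 and 4 were again the lowest of the knockout. The log2 differences were -0.29 (adjusted p = 0.881, SE 0.182) and -0.30 (adjusted p = 1, SE 0.143), and the second was -0.11 without those 2 libraries. Leaving out the lowest libraries makes it smaller whatever its cause, which was not tested. Cdkn2c was lower in the knockout in 2 of 2 litters at E12.5 and 4 of 5 at E15.5. Ccnd2, Cdkn2d, Ccng1 and Mdm2 were also lower in 4 of 5 litters at E15.5. The share of all genes with such litter counts, or with no overlap, was not computed. With the litter block the differences of Cdkn2c were -0.30 (adjusted p of Cdkn2c 0.731) and -0.32 (adjusted p = 1). In Tg(Kat6b) they were -0.01 and -0.13.

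Cdkn1c differed by 0.31 (adjusted p = 0.881, SE 0.136) in the knockout at E12.5. The knockout libraries held 233, 342 and 259 CPM and the wild-type libraries 215, 209 and 243, so the groups overlapped and replicate 3 of the knockout was the highest. That library also had the highest meningeal sum of all 32 (2250 CPM), and without it the difference was 0.13. As it was the highest of the knockout, leaving it out lowers the difference whatever the cause, which was not tested. At E15.5 the difference of Cdkn1c was 0.05, and in Tg(Kat6b) it was -0.17 and 0.09. Cdkn1a differed by 0.06 and 0.10 in the knockout, and by 0.04 and -0.14 in Tg(Kat6b).

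The D cyclins gave no call either. In the knockout Ccnd1 was at 546, 489 and 480.4 CPM at E12.5 and 85.4, 79.8, 85.3, 87.2 and 85.7 at E15.5, within or near the wild-type ranges given above, with log2 differences of 0.12 and -0.09. In Tg(Kat6b) it was at 439, 452, 568 and 574 CPM at E12.5 and 138, 146, 116 and 103 at E15.5, with differences of 0.01 and 0.17. The largest of the other D-cyclin differences were those of Ccnd2, -0.24 in the knockout at E12.5 (interval -0.593 to 0.103) and 0.21 in Tg(Kat6b) at E15.5 (interval -0.0396 to 0.461). In the second, Tg(Kat6b) libraries had 679, 674, 666 and 631 CPM and wild type 634, 606, 488 and 574. The lowest Tg(Kat6b) library lay just under the highest wild-type one, so the groups overlapped. Ccnd3 differed by 0.15, -0.11, -0.04 and 0.17 in the 4 comparisons.

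Ccng1 had the smallest unadjusted p of the 10 in Tg(Kat6b) at E12.5. The Tg(Kat6b) libraries held 68.9, 78.4, 78.6 and 99.01 CPM against 77.8, 60.9, 58.9 and 66.3 in wild type. The groups overlapped, with Tg(Kat6b) replicate 4 above all others. The log2 difference was 0.31 (adjusted p = 0.724, SE 0.127), with an interval of 0.0374 to 0.575, and at E15.5 it was 0.06. In the knockout Ccng1 differed by -0.10 and -0.04. Mdm2 differed by -0.03 and -0.05 in the knockout and by 0.06 and -0.05 in Tg(Kat6b), and Cdkn2d by at most 0.21 (Tg(Kat6b) at E12.5, interval -0.0727 to 0.492).

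**Figure D5:**
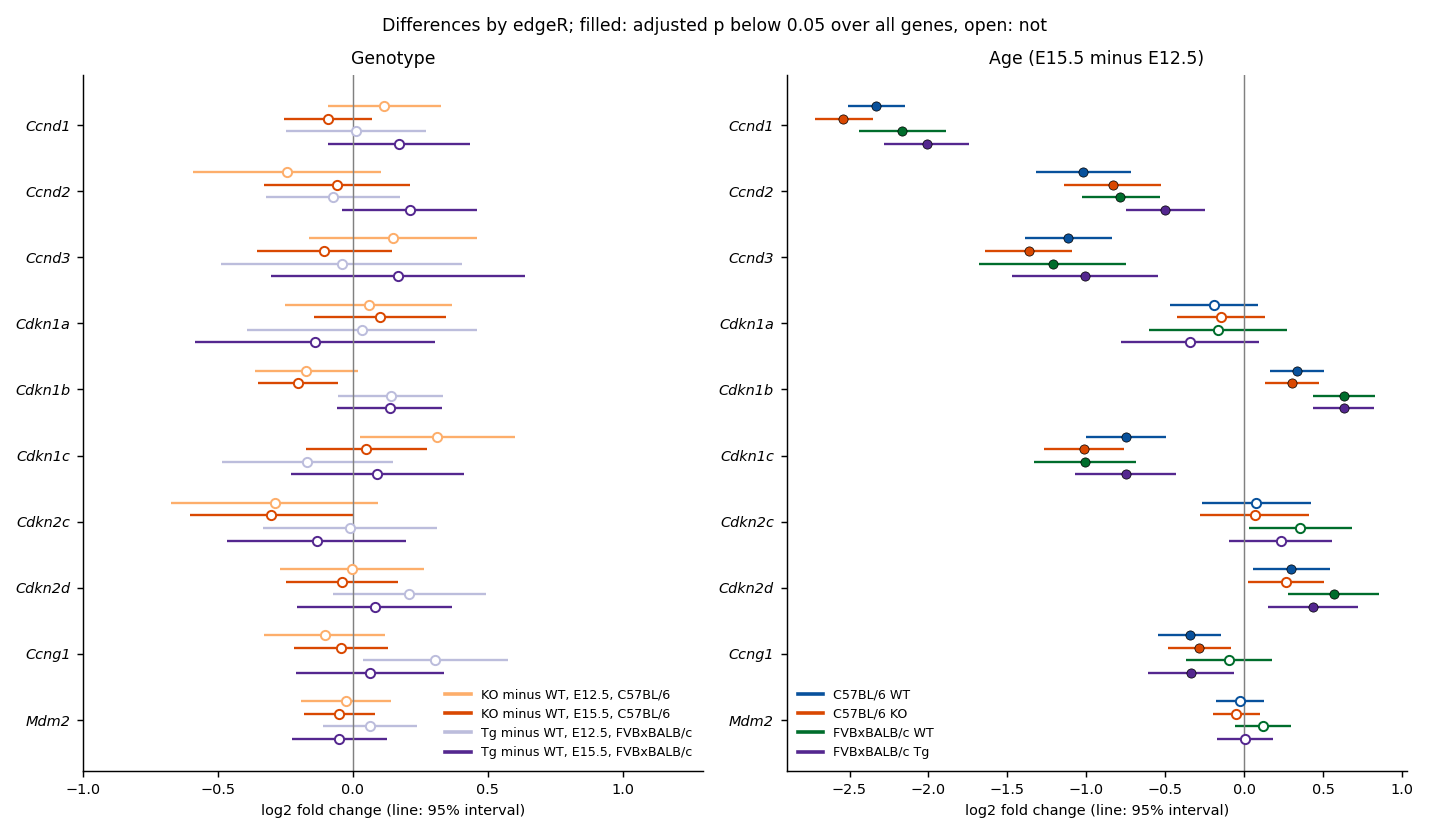
Log2 fold changes of the 10 genes with 95% intervals are shown for the 4 genotype comparisons (left) and the 4 age comparisons (right), filled where the edgeR adjusted p was below 0.05. Every genotype point is open and between -0.30 and 0.31, and the age points of Ccnd1 lie between -2.54 and -2.01.

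The genotype effect was also compared between the ages. By edgeR 0 of 10 genes passed in either background, with 0% of all genes called in both, and none of the 10 had an unadjusted p under 0.05 (438 of all genes did in C57BL/6 and 628 in FVBxBALB/c). DESeq2 also called none of the 10. The estimates of the knockout effect at E15.5 minus that at E12.5 ran from -0.26 (Cdkn1c) to 0.19 (Ccnd2), and those for Tg(Kat6b) from -0.24 (Ccng1) to 0.28 (Ccnd2).

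Wild type of both backgrounds was compared last, as a joint difference of background and batch. At E15.5, 4 of the 10 genes were higher in FVBxBALB/c, where 13.9% of all genes were called higher and 25.3% in either direction. Cdkn1b was 257 against 193 CPM, a log2 difference of 0.41 (adjusted p = 0.000385, SE 0.0805), and Mdm2 117 against 94.7, a difference of 0.31 (adjusted p = 0.00188, SE 0.0709). Ccnd1 was higher by 0.31 (adjusted p = 0.0281, SE 0.105) and Ccng1 by 0.32 (adjusted p = 0.0281, SE 0.107). No library of 1 background overlapped with the other in these 4 genes. The share of all genes without such overlap was not computed, so this is a description only. The calls of Ccnd1 and Ccng1 were lost with total counts as the only scaling, and without C57BL/6 replicate 4, C57BL/6 replicate 5 or FVBxBALB/c replicate 1. Ccnd1 was also lost without C57BL/6 replicate 1, FVBxBALB/c replicate 2 or the low-count filter (adjusted p up to 0.115), and Ccng1 without FVBxBALB/c replicate 4 (0.0698). At E12.5 edgeR called 0 of 10 where 12.8% of all genes passed, 5.59% higher and 7.19% lower (2 of the 10 and 4297 of all genes at an unadjusted p under 0.05, and DESeq2 called none of the 10). The nearest were Cdkn2d at -0.35 (adjusted p = 0.0804, SE 0.135) and Ccnd2 at -0.35 (adjusted p = 0.115, SE 0.145). Leaving out FVBxBALB/c replicate 4 at E12.5, the library with the high Ccnd3, brought 2 calls, Ccnd3 and Cdkn2d, and leaving out C57BL/6 replicate 1 brought 1, Cdkn2d. The share of all genes called in those fits is not given, so these counts are a description only.

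The age change itself was not called different between the wild types of both backgrounds. By edgeR 0 of 10 passed, where 0.0305% of all genes did, 0.0183% higher and 0.0122% lower (1 of the 10 and 1086 of all genes at an unadjusted p under 0.05), and DESeq2 called none of the 10. The 1 was Cdkn1b, whose rise was larger in FVBxBALB/c by 0.32 (adjusted p = 0.657, SE 0.122), with an interval of 0.0690 to 0.568. For Ccnd1 the difference was 0.18, with an interval of -0.139 to 0.504.

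Within groups, each gene had others that followed it from library to library. After taking the group mean from each log2 CPM, over 32 libraries and 16398 other genes, the closest to Ccnd2 was Gli3, a repressor of hedgehog signalling in the dorsal telencephalon (Pearson 0.915, Spearman 0.886), followed by Sept11 (0.855, 0.770). Ccnd3 was closest to Gyg (0.900, 0.887) and Nbl1 (0.893, 0.855), Cdkn1b to Zfp131 (0.883, 0.876) and Zbtb18 (0.860, 0.850), and Cdkn2d to Ctnnbip1 (0.875, 0.867) and Rpl37a (0.874, 0.850). Cdkn2c followed Efnb2 (0.850, 0.867) and Adk (0.825, 0.811), and Cdkn1a followed Metrn (0.836, 0.808) and Slc25a3 (0.827, 0.792). The closest to Cdkn1c were Lhfp (0.830, 0.797) and Ak5 (0.810, 0.827), and those to Mdm2 Zfp711 (0.810, 0.777) and Rbm41 (0.798, 0.760). Lower values were found for Ccng1, with Dsel (0.781, 0.802) and Eda2r (0.720, 0.505), and for Ccnd1, with Mest (0.75, 0.735) and Ildr2 (0.746, 0.640). These correlations are descriptions of the same libraries, which share depth, scaling and batch.

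Gene positions on the mouse genome (mm10) are from RefSeq, and strands and exon overlaps from GENCODE vM21. Ccnd1 lies at chr7:144929931-144939831 on the minus strand, on the same chromosome as Cdkn1c (chr7:143458339-143461059, minus). Ccnd2 lies at chr6:127125162-127152188 (minus) and Cdkn1b at chr6:134920401-134925525 (plus). Chromosome 17 holds Ccnd3 (chr17:47505051-47599689, plus) and Cdkn1a (chr17:29090979-29100722, plus). Cdkn2c is at chr4:109660876-109666756 (minus), Cdkn2d at chr9:21288459-21291421 (minus), Ccng1 at chr11:40748552-40755309 (minus) and Mdm2 at chr10:117688875-117710758 (minus). Exons of genes on the opposite strand overlap those of Ccnd1, Ccnd2, Ccnd3, Cdkn1a and Cdkn1c, and the library kit does not mark strand, so reads of such pairs cannot be told apart. Ccnd3 also has a processed pseudogene, Ccnd3-ps, and its counts are uncertain to that extent.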

How the data were processed

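RNA was extracted with RNeasy columns and DNase, made into libraries with a TruSeq RNA v2 kit, which does not mark strand, and read from both ends (66 bp) on a NextSeq500, per the labels. The authors deposited raw counts per gene without normalization, 1 file per library, made with bcl2fastq and featureCounts on mm10, per the submitters' processing notes. The aligner, annotation, counting settings and version numbers were not given in the sources used here. Of 27179 rows per file, 848 named no gene (0.305% to 2.00% of counts) and were left out. The 10 genes, the gene lists and the tests were chosen with earlier results of these data known.

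Genes were kept by filterByExpr in edgeR 4.0.16 (R 4.3.3; minimum count 10, minimum total 15) and scaled by trimmed means of M values. A quasi-likelihood model with a mean per group was fitted to the 16 libraries of each background (16118 and 15556 genes, 12 residual degrees of freedom, biological coefficient of variation 0.162 and 0.188), and 1 model to all 32 libraries (16399 genes, 24 degrees of freedom, 0.178) served comparisons between backgrounds. Tests are 2-sided, with Benjamini-Hochberg adjustment over all genes of a comparison and calls at an adjusted p below 0.05. Every adjusted p is from this edgeR test unless another tool is named. The SE was worked back from each F statistic and its fold change, and intervals are at 95%. Genotype and age comparisons of 1 background share libraries and so are not independent. CPM per kb divides CPM by the deposited length. The test was checked on simulated counts in which 50 genes each were changed 1.5, 2, 3 and 4-fold at once, all with mean counts above 50. Of those changed 1.5-fold it recovered 26 in a knockout comparison at E12.5 and 38 at E15.5. With so many changed genes the adjusted p is easier to pass than in the real genotype comparisons, so these counts do not give the power there. Precision varies with total counts (10424813 to 49699656), and reads have no molecular identifiers.

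In C57BL/6 the replicate numbers pair embryos of a litter, per the labels, and a fit with this block was an alternative. The others were DESeq2 1.42.0, limma 3.58.1 (voom, with and without quality weights), total-count scaling, other gene filters, fits of fewer or all groups, a meningeal covariate and leaving out libraries. The covariate and the fit without both FVBxBALB/c replicates 4 at E12.5 were chosen after seeing the data. Named beside the 10 genes are up to 3 genes per direction with the smallest adjusted p from each of the G1/S, p53 and proliferation lists in wild type, the 2 most alike genes of each member, and markers. Ccne1, Cdkn2a, Cdkn2b, Stac, Dupd1 and Rn45s, outside that rule, were named after their values were seen. Promoters are from RefSeq.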

Additional observations from a re-analysis of the deposited data

Results flagged for a closer look

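In 5 of 60 group-and-gene sets of 4 or 5 libraries, 1 library lay apart from the rest of its group by Dixon's criterion, which chance gives in about 1 of 20. Cdkn1a in Tg(Kat6b) at E15.5 was 8.22 CPM in replicate 4 and 13.6 to 14.1 in the other 3, a gap of 0.913 of the whole range (critical value 0.829). The same library had the highest Cdkn1b, 317.5 CPM against 265.7 to 273.5 (0.849 of the range). Ccnd2 in C57BL/6 wild type at E15.5 was 457.8 CPM in replicate 3 and 627.3 to 672.6 in the other 4 (0.789, critical value 0.710). In the knockout at E15.5, Ccnd1 was 79.8 CPM in replicate 2 against 85.3 to 87.2 (0.740), and Ccnd3 was 32.4 in replicate 4 against 29.4 to 29.9 (0.830).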

How the results depend on the processing

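No result changed sign among called values in any alternative. The age calls of Ccnd1, Ccnd2, Ccnd3 and Cdkn1c held in every setting run in all 4 age comparisons, and the calls of Cdkn1b held in every setting run in FVBxBALB/c. The meningeal covariate was a deviation from the mean of the libraries of the same background and age. It could therefore not take up the mean meningeal difference between the ages, and its fits do not test that part. In the 4 genotype comparisons and the 3 tests of a difference between effects, 0 of 10 genes were called in every setting. With 1 library left out, the age comparisons called 5 to 7 of the 10 in C57BL/6 wild type (5 without E12.5 replicate 1), 5 to 7 in the knockout, 6 to 8 in Tg(Kat6b) and 6 to 7 in its wild type. Between backgrounds, quality weights raised the count at E12.5 from 0 to 3 (Ccnd3, Cdkn2d and Mdm2), and leaving out 1 library gave 0 to 2. At E15.5 total-count scaling gave 2 (Cdkn1b and Mdm2) in place of 4, quality weights gave 5, adding Ccnd3 as lower (-0.36, adjusted p = 0.0458), and leaving out 1 library gave 2 to 4. The cause was not tested. The share of all genes called in each setting is not given beside these counts, so they are a description only.

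Total-count scaling moved the median of all genes to -0.175 in the knockout age comparison and to -0.104 in that of Tg(Kat6b). Counts over all genes changed by over 1.5 times in the genotype comparisons. In the knockout at E12.5 the count of 1 was 5 with DESeq2 and 0 with the replicate block, and at E15.5 the count of 0 was 7 and 1. In Tg(Kat6b) at E12.5 the count of 2 was 6 with DESeq2 and 832 with quality weights, and at E15.5 it was 7 with DESeq2. Between backgrounds at E12.5 quality weights called 5211 genes in place of 2095, so the rise among the 10 genes there came with a rise over all genes. For the differing age effect of the backgrounds, the count of 5 was 16 with DESeq2 and 36 with weights. The replicate block changed no call of the 10 genes. In FVBxBALB/c the labels give no litters and same-numbered libraries shared only a number (correlations of deviations -0.0922 to 0.504). With the block 2 genes were called at each age there, as without it. Depth limits Cdkn1a and Cdkn2c most, at 85 and 111 counts in their shallowest libraries.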
